A study of Mus musculus with 360 samples.

Results

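Posterior frontal (PF) suture cells are the single CD51+;CD200+ skeletal stem and progenitor cells that were sorted from the PF suture, the midline joint between the frontal bones of the mouse skull. They were taken as all cells of the 2 PF plates that held no fewer than 500 detected genes and 10000 reads. The rule kept 87 PF cells (34 of plate 1 and 53 of plate 2) and removed 14, and over the whole series it kept 325 of 360 cells. The other cells came from the sagittal and coronal sutures and the tibial growth plate. All cells were from wild-type CD-1 mice at postnatal day 3 (pN3), an outbred stock, and no treatment, transgene or mutant allele was involved. The suture was dissected as a complex that also held the bone edges, the dura mater and the periosteum, many pups were used, and a double sort took cells with CD51 and CD200 on the surface and without CD105, 6C3, Thy1.1, Thy1.2, Tie2, CD45 or Ter119. No cell was labelled with its animal, so the PF cells count as 1 sample, no test was made, and the values below describe these cells, with levels and correlations given for plate 1 and then plate 2.

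Skull bones grow at their margins, where osteoblasts derived from the suture mesenchyme lay down a collagen I matrix and then mineralize it. Cells that are entering bone formation switch on Runx2 and then Sp7, and later add secreted mineral-binding proteins such as osteopontin (Spp1), bone sialoprotein (Ibsp) and osteocalcin (Bglap), whereas fibrous cells are rich in collagen III, collagen XIV, small leucine-rich proteoglycans and microfibril proteins.

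The PF cells were sequenced to a median of 487767 reads, of which Rn45s, the ribosomal RNA precursor, took 26.8% overall and up to 94.6% in a cell. Without Rn45s the cells held 5974 to 858944 reads (median 312083), with a median of 125830.5 on plate 1 and 511698 on plate 2, and 568 to 4637 genes with a read (median 2512). The kept cell with fewest genes had 568 and the removed cell with most had 410. Of 9438 genes with at least 10 CPM (reads per 1000000 reads, Rn45s left out) on a plate, 4014, or 42.5%, differed at least 2-fold between the plates, so plate and depth cannot be told apart here and no difference between the plates is read as biology.

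Sequence upstream of the genes on which the results turn is shown first, since Spp1, Ibsp and Bglap rose and fell together over PF cells while Itm2a ran against Spp1. The 250 bases before each annotated start were taken from RefSeq on build GRCm38.p6, which differs from the mm9 build of the count tables. They lie at chr5:104434861-104435110 (plus strand) for the first of 2 annotated starts of Spp1, chr5:104299037-104299286 (plus strand) for Ibsp, chr3:88384467-88384716 (minus strand) for Bglap and chrX:107403361-107403610 (minus strand) for Itm2a. Each is written 5′ to 3′ with the core motif bound by RUNX factors, TGTGGT on either strand, in capitals.
Spp1: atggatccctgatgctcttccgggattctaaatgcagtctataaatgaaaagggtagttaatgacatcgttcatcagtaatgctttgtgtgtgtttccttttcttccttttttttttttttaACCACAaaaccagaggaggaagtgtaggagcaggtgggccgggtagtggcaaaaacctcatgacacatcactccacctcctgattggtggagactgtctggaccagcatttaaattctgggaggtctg
Ibsp: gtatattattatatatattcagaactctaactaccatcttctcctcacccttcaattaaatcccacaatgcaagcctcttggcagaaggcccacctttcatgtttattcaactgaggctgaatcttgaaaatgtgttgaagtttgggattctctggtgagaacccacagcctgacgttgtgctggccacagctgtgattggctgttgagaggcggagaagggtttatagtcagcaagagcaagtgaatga
Bglap: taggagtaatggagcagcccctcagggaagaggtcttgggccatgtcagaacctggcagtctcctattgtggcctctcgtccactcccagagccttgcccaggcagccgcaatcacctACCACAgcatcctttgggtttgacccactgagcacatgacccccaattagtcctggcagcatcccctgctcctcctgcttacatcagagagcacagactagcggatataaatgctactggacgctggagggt
Itm2a: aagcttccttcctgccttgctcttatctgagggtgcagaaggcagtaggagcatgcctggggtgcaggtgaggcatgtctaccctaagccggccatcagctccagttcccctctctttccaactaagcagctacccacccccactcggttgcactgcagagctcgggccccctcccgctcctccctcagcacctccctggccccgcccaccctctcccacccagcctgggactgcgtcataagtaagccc
The motif was present once before Spp1, starting 128 bases before the start, and once before Bglap, starting 132 bases before it. Its letters were in neither the Ibsp nor the Itm2a window, nor before the other start of Spp1. Of all 32851 promoters of the same length, 4614, or 14.05%, held it, beside 4 of 18 promoters of the bone matrix genes described below (13 of 16 genes matched) and 2 of 16 promoters of the genes that ran against Spp1 (12 of 20 genes matched).

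Collagen I and its partners led the reads of PF cells. Col1a1 and Col1a2, the chains of collagen I, took 112520 and 66256 CPM of the summed reads of plate 1 and 75393 and 53760 CPM on plate 2. Spp1 took 68300 and 20662 CPM, and Sparc, the collagen-binding protein osteonectin, took 47772 and 30472 CPM. Together these 4 genes held 29.5% of the reads of plate 1 and 18.03% of those of plate 2. Col1a1 was the gene with most reads in 57 of 87 cells, Col1a2 in 9, Spp1 in 8 and Malat1, a nuclear long non-coding RNA, in 4. Of the 50 genes with most reads on each plate, 38 were on both lists, and the 20 highest over both plates ran on from those 4 through Col3a1, Malat1, Eef1a1, Lum, Mmp13, Serpinf1, Dcn, Itm2a, Bgn, Fmod, Thbs2, Gnas, Pcolce, Fstl1, Col5a2 and Ftl1. Most of these encode secreted matrix proteins or proteins that shape collagen: Lum, Dcn, Bgn and Fmod are small leucine-rich proteoglycans, and Pcolce enhances the trimming of procollagen.

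Read counts grow with transcript length, so the genes were also ranked by reads per kilobase of exon for the 20763 genes with a length, which held 96.9% of the reads. On that scale Spp1 had rank 1 on both plates, Col1a1 rank 2, Sparc rank 3 and Col1a2 rank 4, and 12 of the 20 genes with most reads stayed among the 20 highest. Bglap, with 0.618 kb of exon, came to rank 5 by the mean of the plates (7 and 8 on the plates) and the matrix Gla protein gene Mgp to rank 18. Bglap shared 74.7% of its 50-base stretches with Bglap2, so reads of this pair can be assigned to either copy and their separate levels are uncertain.

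The leading genes were of different kinds once single cells were viewed. Col1a2 was read in all 87 cells, from 7.38 to 164422 CPM with a median of 45605 CPM. Col1a1 was read in 84 cells and Sparc in 86, with medians of 55926 and 29564 CPM. Spp1 was read in 38 cells only (13 of 34 and 25 of 53), with a median of 0. Its values fell apart: 27 cells lay between 506 and 709212 CPM, and the other 11 lay at or below 64.6 CPM, 10 of them with exactly 1 read. The cell with most Spp1 gave 70.9% of its reads to that gene and the next gave 54.3%, both on plate 1. Mmp13, a collagenase, reached 8169 CPM on plate 1 and 727 on plate 2, but was read in 20 cells and 1 cell held 41.8% of all its reads.

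The 6 genes read in every PF cell were Actb, Col1a2, Eef1a1, Gm1821, Ppia and Rps14. Eef1a1, a translation elongation factor, ranged from 474 to 15645 CPM. Of 13138 genes with a read in any PF cell, 123 were read in at least 90% of cells and 1647 in 1 cell only. The remaining marker genes were each read in a minority of cells. Sfrp2, a secreted Wnt modulator, was read in 34 cells and up to 7292 CPM. Acta2, smooth muscle actin, was read in 30 cells and up to 15875 CPM. Fbn2, a microfibril protein, was read in 36 cells and up to 1980 CPM, and Col8a1, a short-chain collagen, in 37 cells and up to 6828 CPM. Each of these 4 genes had a median of 0 on both plates, so they marked some PF cells and not the tissue as a whole.

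**Figure D1:**
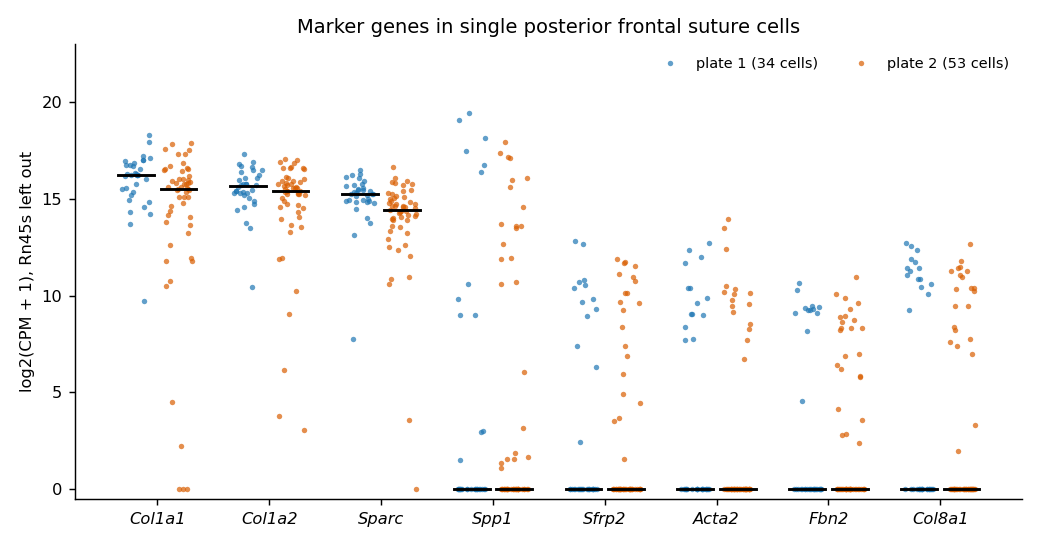
Levels of the 8 marker genes in single PF cells, as log2(CPM + 1) with Rn45s left out (vertical axis), for 34 cells of plate 1 and 53 cells of plate 2; each point is a cell and each bar a plate median. Col1a1, Col1a2 and Sparc lie high in nearly all cells, Spp1 splits into cells at or above 506 CPM and cells at or near 0, and the medians of Sfrp2, Acta2, Fbn2 and Col8a1 are 0.

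The genes for CD51, CD200, CD45 and Tie2 were sparse in RNA, and those for the other surface markers of the sort were not examined. Itgav, which encodes CD51, was read in 32 of 87 cells and Cd200 in 39, with 17 cells holding both and 33 holding neither. Ptprc (CD45) was read in 3 cells, at most at 212 CPM, and Tek (Tie2) in 0 of 87 cells, which allows a share of up to 3.45% of cells with a read. Of 10 endothelial genes, 6 including Pecam1 and Tek had no read, and 1 plate 2 cell held 79.6% of the reads of the list. Of 10 haematopoietic genes, 5 had no read and the summed level of the list was 41.1 CPM on plate 1 and 15.01 CPM on plate 2. Mbp, a myelin protein gene of glial cells, was read in 1 plate 2 cell, at 3598 CPM.

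Individual PF cells stood apart in their leading genes. In 2 cells of plate 2 Ttr, transthyretin, led with 16.01% and 4.30% of the reads, and the gene was read in 4 PF cells in all. The cell with most endothelial reads was led by Malat1 and Myh11, smooth muscle myosin, and also held 24.9% of the reads of 12 contractile genes and 35.5% of those of 7 pericyte genes. A further cell of plate 2 held 70.9% of the reads of 21 genes of mitosis. The first 2 cells, the contractile cell and the glial cell were left out in an added reading of each result, given beside the values it moved. The contractile and glial cells were picked as those with most reads of the endothelial and of the glial list, not by their leading gene. In both, Malat1 led. A cell led by Apoe and a cell led by Acta2 stayed in. No doublet caller was run. Of 56 cells with a read of Xist or of a Y-linked gene, 24 had Xist only, 32 had Y-linked reads only and 0 had both.

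Fibrous matrix and mineral-binding genes varied most over PF cells. Variability was the standard deviation (SD) over cells of log2(CPM + 1), less the running median SD of the genes nearest in mean level. Of 5884 genes with a read in at least 10% of the cells of each plate, 59 were among the 100 most variable on both plates, that is 1.00%. Spp1 was first on both plates, 3.00 and 2.83 log2 units above the trend. It was followed by Itm2a, a membrane protein (1.98 and 2.38), the microfibril-associated Mfap4 (1.90 and 1.88) and Fmod (2.10 and 1.77). The next were Ogn, Cdkn1c, Col3a1, Igf1, Ibsp, Mgp, Mmp13, H19, Igfbp4, Cpz, Cpxm1, Tnc, Apoe, Col6a1, Lum and Col12a1.

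The lists were chosen with earlier results of these data known, so counts by list, here and below, describe these cells and are not independent support. By list, beside 1.00% of all genes tested, 12 of 18 fibrous matrix genes tested were variable on both plates, among them Postn, Col14a1, Aspn and Sfrp2. So were 5 of 12 bone matrix genes tested (Alpl, Ibsp, Spp1, Bglap and Bglap2). Among 11 imprinted genes tested H19, Mest and Cdkn1c were variable, and Sfrp2 and Wif1 were among 6 Wnt pathway genes tested. The count was 0 of 10 for transcription factors of the bone-forming lineage, 0 of 77 for ribosomal protein genes, 0 of 13 for secretory pathway genes and 0 of 9 for S-phase genes, which at these list sizes is near the share over all genes. The 10 transcription factors summed to 718 and 761 CPM, 82 cells held a read of at least 1, and 4 of them passed the 30% filter. Atf4 was read in 58 cells at 129 and 192 CPM, Runx2 in 39 at 53.1 and 56.2 CPM and Twist1 in 25 at 18.1 and 24.1 CPM. At the lower levels a cell without a read was not shown to lack the transcript.

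**Figure D2:**
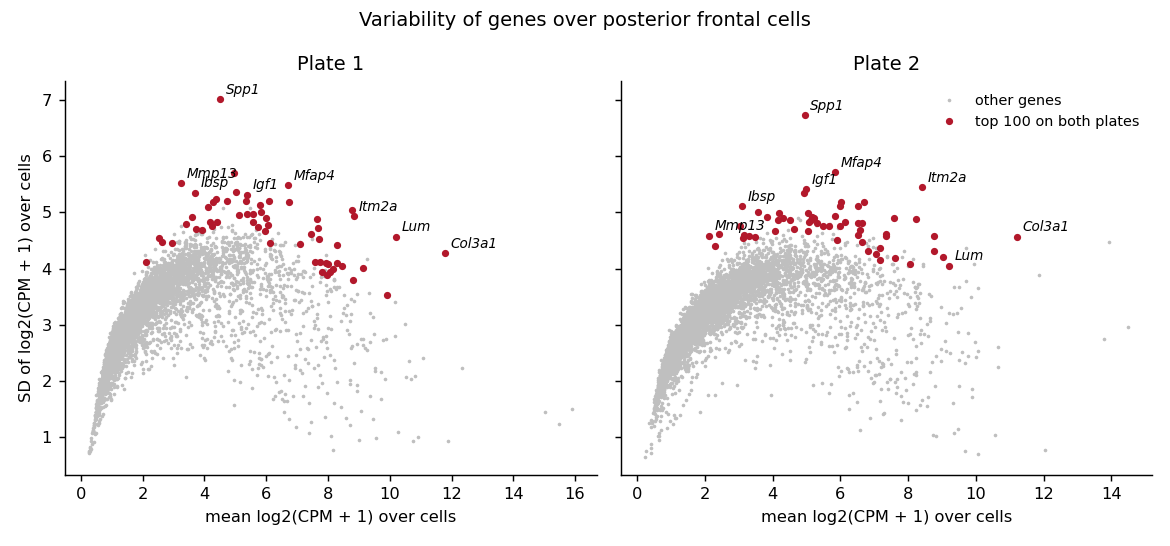
SD of log2(CPM + 1) over cells (vertical axis) against mean log2(CPM + 1) (horizontal axis) for 5884 genes, with plate 1 on the left and plate 2 on the right. The 59 genes among the 100 most variable on both plates are in red, and Spp1 lies highest on both.

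Many more gene pairs rose and fell together than ran against each other. Pearson's r of log2(CPM + 1) over cells was computed on each plate for the 2127 genes with a read in at least 30% of the cells of both plates. Of 2261001 pairs, 1459 (0.0645%) had an r of at least 0.5 on both plates, and 66 (0.00292%) had an r of -0.5 or lower on both. The points of each r are 34 and 53 cells that share a plate and differ in depth, and whether they share animals was not given. The median r over all pairs was 0.0872 on plate 1 and 0.127 on plate 2. The pairs carried over from plate to plate in part. The 1000 pairs with the highest r on plate 1 had a median r of 0.716 there and 0.331 on plate 2, where 28.7% of them reached 0.5 beside 0.823% of all pairs. The 1000 highest of plate 2 had a median r of 0.698 there and 0.371 on plate 1, where 31.1% reached 0.5 beside 0.919% of all pairs. Pairs at the low end carried over less. The 1000 lowest of plate 1 had a median r of -0.55 there and -0.037 on plate 2, where 6.3% reached -0.5, and the 1000 lowest of plate 2 had -0.47 there and -0.18 on plate 1, where 9.9% did. Of the 1459 pairs, 825 (56.5%) kept their call whichever cell was left out. When log2(CPM + 1) was replaced by its residual on the number of genes with a read, 922 pairs were called, of which 839 were among the 1459.

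**Figure D3:**
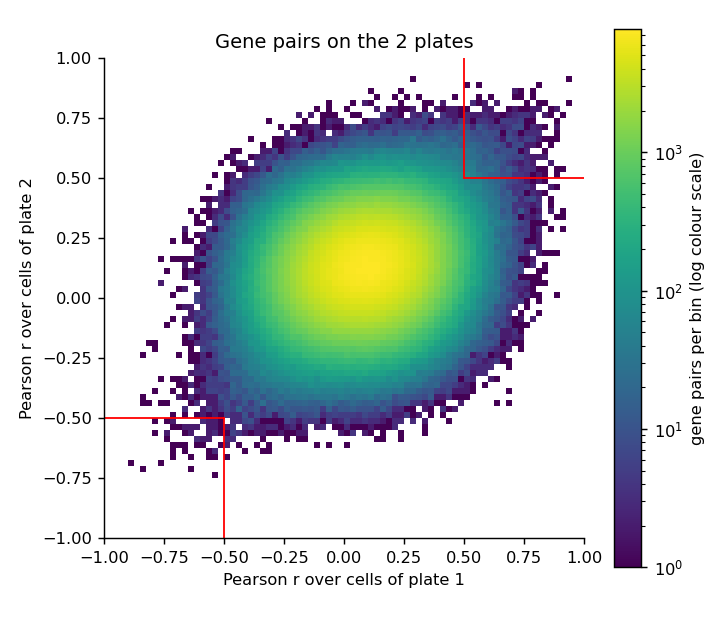
Pearson r of each of 2261001 gene pairs over the cells of plate 1 (horizontal axis) and of plate 2 (vertical axis), with colour giving the number of pairs per bin on a log scale. Red corners mark the 1459 pairs at 0.5 or above and the 66 pairs at -0.5 or below on both plates; most pairs lie near 0.

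The called pairs linked 552 genes, of which 344 formed 1 connected set with 1300 of the pairs. The next set held 23 genes, all of them ribosomal protein genes, and the one after it held 17 genes of general metabolism and structure such as Aldoa, Pkm, Cfl1 and Tuba1b. In the large set the genes with most partners were Mfap4 (58), the interleukin 11 receptor gene Il11ra1 (53), Col14a1 (49), Cdkn1c (48), Igf1 and Itm2a (47 each), the elastin crosslinking enzyme Loxl1 (46) and Mgp (45). Mfap4 kept 51 of its partners and Il11ra1 kept 47 whichever cell was left out. Il11ra1 shared 40.02% of its 50-base stretches with the near copy Il11ra2, so its reads are less certain.

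Pairs in this group made up most of the 15 highest, ranked by the lower r of the 2 plates. Col14a1, a fibril-associated collagen, went with Il11ra1 (0.83 on plate 1 and 0.82 on plate 2), with Igf1 (0.81 and 0.90) and with Mfap4 (0.93 and 0.80). Igf1, an insulin-like growth factor, and Col14a1 were both read in 42 cells, 1 of the genes alone in 3 cells each, and neither in 39. Itm2a went with Cdkn1c, an imprinted inhibitor of the cell cycle (0.82 and 0.82), with the proteoglycan Ogn (0.90 and 0.80) and with the microfibril protein gene Mfap2 (0.79 and 0.83). Itm2a was read in 66 cells and up to 32139 CPM, Cdkn1c in 65 and up to 8257 CPM, and both were read in 61. These r values stayed at or above 0.76 on each plate when any 1 cell was left out. Il11ra1 with Loxl1 (0.82 and 0.80), Igf1 with Mfap4 (0.84 and 0.77) and the complement-related C1qtnf2 with Igf1 (0.81 and 0.78) belonged to the same group.

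The marker genes Sfrp2, Fbn2 and Col8a1 sat within it. Col8a1 went with Shisa3 (0.72 and 0.86), with Mgp (0.74 and 0.75) and with Mfap4 (0.71 and 0.76). Fbn2 went with Mfap4 (0.59 and 0.78), Il11ra1 (0.64 and 0.60) and the TGF-beta binding protein gene Ltbp2 (0.59 and 0.64). Sfrp2 went with Ltbp2 (0.62 and 0.71), Col8a2 (0.58 and 0.61) and Smoc2 (0.55 and 0.63). Over the fibrous matrix list, 28 of 153 pairs were called beside 0.0645% of all pairs, with a median r of 0.32 on plate 1 and 0.42 on plate 2. The strongest of them were Col12a1 with Col6a1 (0.73 and 0.72) and Col6a1 with Col6a2, chains of the same collagen VI fibril (0.71 and 0.85).

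Imprinted growth genes moved with the fibrous group. Of 45 pairs among 10 imprinted genes, 8 were called (17.8% beside 0.0645% of all pairs), with a median r of 0.42 and 0.31 beside 0.0872 and 0.127. H19, a non-coding RNA, and Igf2, its neighbour 72625 bases away on mm9, had an r of 0.74 and 0.72, Cdkn1c and Igf2 had 0.79 and 0.67, and Cdkn1c and H19 had 0.71 and 0.71. The mean level of the imprinted list followed that of the fibrous matrix list (r 0.75 and 0.83 over cells) and ran against that of the bone matrix list (-0.74 and -0.47).

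A group around Apoe and Igfbp2 lay at the edge of the fibrous genes. Apoe, a lipid carrier, and Igfbp2, a binder of insulin-like growth factors, had an r of 0.85 and 0.77 and were both read in 33 cells, with 44 cells holding neither. Apoe also went with Shisa3 (0.80 and 0.68) and with the sodium pump subunit gene Atp1b1 (0.73 and 0.74), and less closely with Mfap4 (0.60 and 0.46). A single cell held 48.4% of all Apoe reads, at 34251 CPM. Of 8 genes known from the meninges 7 had a read, 48 cells held at least 1 of them, and the list summed to 398 and 220 CPM. Foxc1 was read in 21 cells with an r to Apoe of 0.14 and 0.13, and Ptgds in 2 cells. Crabp2 reached 100 CPM in 9 cells. Cldn11, read in 12 cells, had an r to Apoe of 0.78 on plate 1 and 0.35 on plate 2. In coronal cells the r to Apoe was 0.62 for Foxc1 and 0.44 for Cldn11. A source of the Apoe cells in the meninges was not tested. At the 30% filter Acta2 had 0 called pairs, and its highest partners were Myl9 (0.52 and 0.49), Actb (0.41 and 0.49) and Tpm2 (0.39 and 0.50), all of the actin and myosin apparatus. With the contractile gene Tagln, read in 13 cells and so below that filter, Acta2 had an r of 0.54 and 0.53, and 0.54 and 0.47 without the 4 cells named above. It fell to 0.48 and 0.45 with 1 cell left out, and Spearman's rho was 0.54 and 0.41.

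Genes of mineralizing bone also rose and fell together, in fewer cells. At the 30% filter Spp1, Sgms2, Dapk2, Sp7 and Wif1 belonged, through chains of called pairs, to the same connected set of 344 genes as Mfap4. Ibsp was read in 27 cells (12 and 15) with a median of 0 and a maximum of 32976 CPM. Ibsp and Spp1, which lie 123649 bases apart on mm9, were both read in 25 cells, and at 100 CPM or more, a level chosen after the values were seen, 22 cells held both, 3 held Ibsp only and 5 held Spp1 only. Their r was 0.83 and 0.84, and the scatter of Ibsp against Spp1 shows the same cells high for both. Bglap was read in 22 cells and up to 52105 CPM, and went with Ibsp (0.64 and 0.72), Spp1 (0.68 and 0.74) and the osteoblast membrane protein gene Ifitm5 (0.77 and 0.89). Ifitm5 and Smpd3, a sphingomyelinase needed for mineralization, had an r of 0.85 and 0.90, and the keratan sulfate proteoglycan Omd went with Ifitm5 at 0.71 and 0.75.

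Because Ibsp and Bglap fell below the 30% filter, these pairs were read at a filter of 10%, where 2060 of 17307786 pairs (0.0119%) had an r of at least 0.5 on both plates and 155 (0.000896%) had -0.5 or lower. At that filter 20 of 66 pairs of the bone matrix list were called, with a median r of 0.34 and 0.39 beside 0.043 and 0.071 over all pairs. Of them 17 were among the 28 pairs of the 8 members other than Col1a1, Col1a2, Sparc and Alpl. The rest joined Col1a1, Col1a2 and Sparc to each other. Bglap and Bglap2 share sequence, so their pairs are not separate counts. Alpl, alkaline phosphatase, had 0 called pairs at the 30% filter, and its r with Spp1 was -0.48 on plate 1 and 0.39 on plate 2. Dmp1, a late matrix protein, was read in 10 cells at up to 39185 CPM, Phex in 4, Phospho1 in 2 and Mepe in 1.

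Outside the list, genes that joined this group were chosen for naming after their values were seen. The fibril collagen gene Col11a2 went with Bglap at 0.92 and 0.81, and Col22a1 with Bglap at 0.75 and 0.88. Sp7, the zinc finger factor of osteoblast commitment, was read in 31 cells and went with the kinase gene Dapk2 (0.77 and 0.62), the channel gene Panx3 (0.70 and 0.68) and the Wnt inhibitor Wif1 (0.57 and 0.67), but with Spp1 at only 0.37 and 0.54. Sgms2, a sphingomyelin synthase, went with Cgref1 at 0.72 and 0.78. At the 30% filter Spp1 had 2 called partners, Sgms2 (0.55 and 0.58) and Dapk2 (0.52 and 0.72). The call of Sgms2 was lost with thinning (0.43 on plate 1) and that of Dapk2 by Spearman's rho (0.49), with log2(CPM + 10) (0.48) and with 1 cell left out (0.46). Mef2c, a transcription factor, reached 0.84 with Spp1 on plate 1 and 0.44 on plate 2. Runx2 with Sp7 had an r of -0.17 and 0.46, so it had no common direction on the plates. Mmp13 was loosely tied to Spp1 (0.40 and 0.42).

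Spp1 ran against part of the fibrous group. Col3a1, Lum, Dcn, Bgn and Fmod had 0 opposite pairs called. Between the bone matrix and fibrous matrix lists, 3 of 108 pairs were called opposite and 3 together, beside 0.00292% and 0.0645% of all pairs. Of the 66 opposite pairs, 62 had Spp1, Mef2c, Sgms2, Dapk2, Wif1 or Sp7 at an end, with 20 for Spp1, 15 for Mef2c and 10 for Sgms2. Itm2a and Spp1 had an r of -0.84 and -0.71, Cdkn1c and Spp1 -0.88 and -0.70, 1500015O10Rik and Spp1 -0.77 and -0.70, Mfap4 and Spp1 -0.67 and -0.65, and Dapk2 and Mgp -0.72 and -0.67. At 100 CPM or more, 54 cells held Itm2a only, 17 held Spp1 only, 10 held both and 6 held neither. For Mfap4 and Spp1 the cells numbered 46, 25, 2 and 14 in the same order. No cell held Sfrp2 and Spp1, Fbn2 and Spp1, or Dapk2 and Mgp at that level together (0 of 87 in each case), while the tissue held 26 cells with Sfrp2, 26 with Fbn2 and 27 with Spp1. Sfrp2 and Fbn2 had 0 opposite pairs called, so their pairs with Spp1 were not among the 66. The level was chosen after the values were seen, and the share of all pairs without such overlap was not counted.

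A gene that takes up to 70.9% of the reads of a cell lowers the CPM of all others there. With Spp1 left out of the totals as well as Rn45s, a reading added after seeing the data, 70 opposite pairs were called, and they included all 66. Of the 66, 52 kept their call whichever cell was left out. Without the cells led by Ttr, the contractile cell and the glial cell (4 in all), 171 opposite pairs were called, of which 65 were among the 66. With cells thinned to 50000 reads, 35 were called, of which 30 were among the 66.

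**Figure D4:**
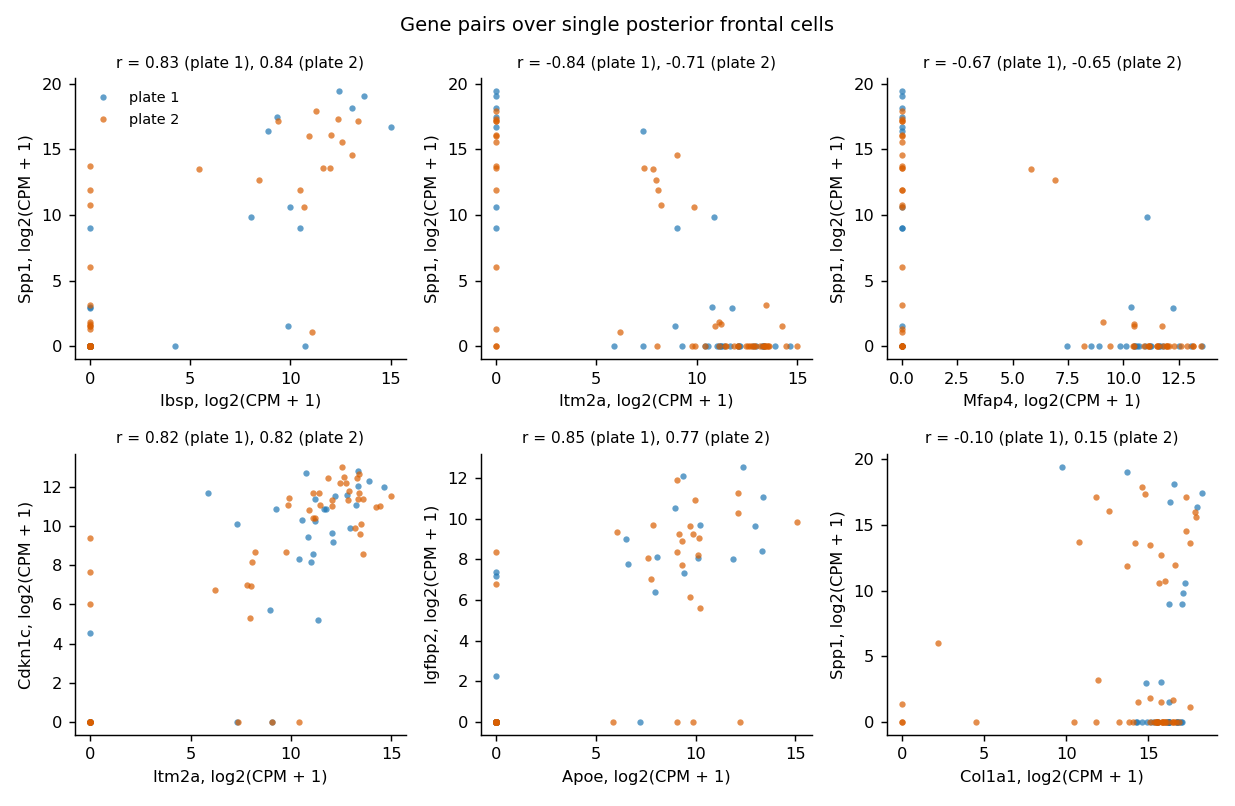
Levels of 6 gene pairs in single PF cells as log2(CPM + 1), with 34 cells of plate 1 in blue and 53 cells of plate 2 in orange, and r on each plate above each panel. Spp1 rises with Ibsp, lies along both axes against Itm2a and Mfap4, and has an r near 0 with Col1a1, which moves to 0.28 on plate 1 without 1 cell; Itm2a rises with Cdkn1c and Apoe with Igfbp2.

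The main collagen genes were most closely tied to each other, although they belonged to the connected set of 344 genes. Col1a1 and Col1a2 had the highest r of the pairs at the 30% filter by the lower of the 2 plates, 0.94 on plate 1 and 0.92 on plate 2, and neither gene shared a 50-base stretch with the other. Col1a1 with Sparc had 0.87 and 0.79, and Col1a2 with Sparc 0.89 and 0.71. Col1a1 with Spp1 had -0.10 and 0.15, and the plate 1 value was 0.28 without the cell with 70.9% of its reads from Spp1. Spearman's rho for this pair was 0.21 and 0.053. Col1a1 with Itm2a had 0.08 and 0.42, and -0.23 on plate 1 without the same cell. With bone genes Col1a1 had low positive values, such as 0.49 and 0.30 with Bglap and 0.33 and 0.27 with Omd. Serpinf1, an inhibitor of vessel growth secreted by bone cells, went with Pcolce at 0.80 and 0.86 and with Col1a1 at 0.74 and 0.86. These values rested on 1 cell of plate 1, the cell with 70.9% of its reads from Spp1: without it the plate 1 values were 0.29 and 0.40. Lum went with genes of protein folding and export such as Txndc5 (0.72 and 0.66) and Rcn1 (0.68 and 0.68). The call of Lum with Pdia3, of the secretory list, was lost with at least 1500 genes and 50000 reads (0.07 and 0.49). It was also lost as residuals on genes per cell (0.26 and 0.45), by Spearman's rho (0.35 and 0.49) and with 1 cell left out (0.56 and 0.49). Lum had an r of 0.78 and 0.33 with genes per cell. Whether its ties to Txndc5 and Rcn1 follow from that was not tested.

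**Figure D5:**
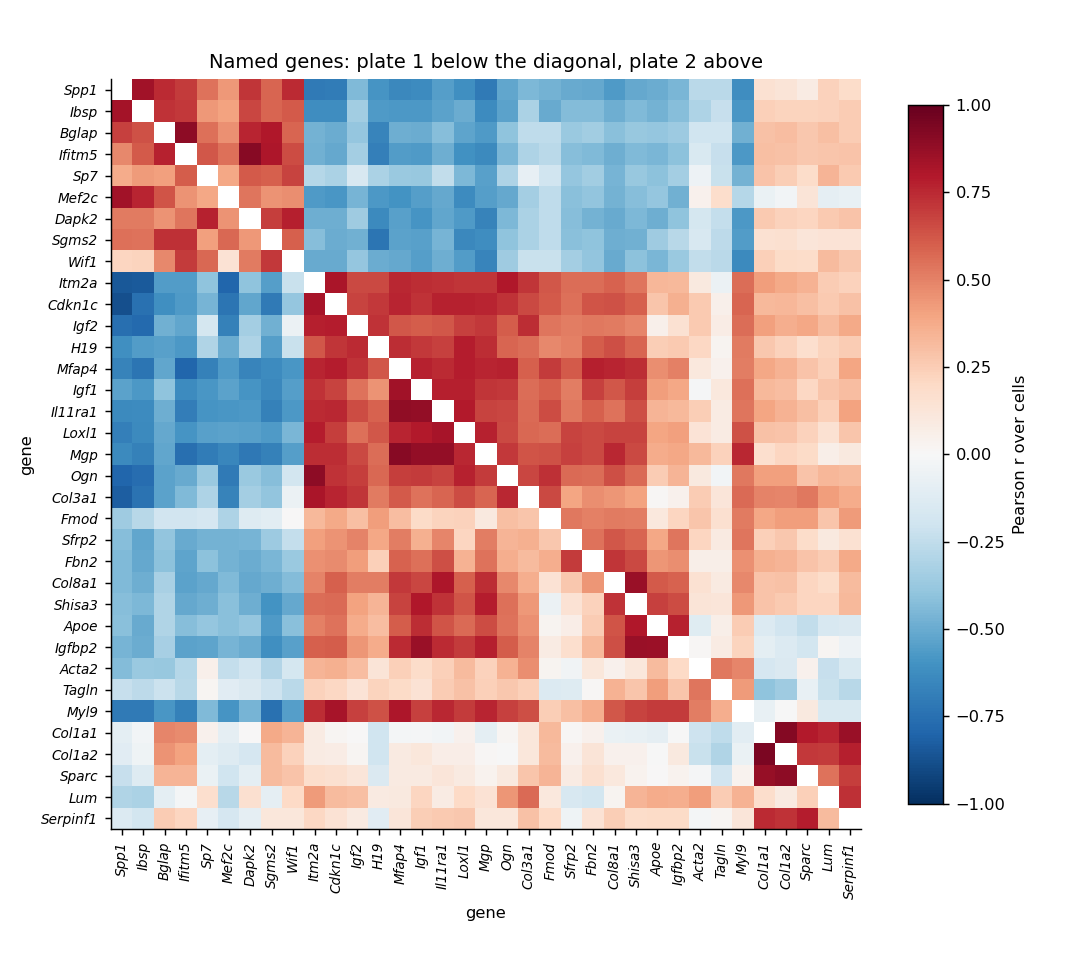
Pearson r over cells between named genes, plate 1 below the diagonal and plate 2 above it, on a colour scale from -1 (blue) to 1 (red). Genes from Spp1 to Wif1 are red among themselves and mostly blue against the genes from Itm2a to Igfbp2, palest for Fmod, and Col1a1, Col1a2 and Sparc form a separate red block.

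Summed over lists, the opposition of bone and fibrous matrix was weaker than that of Spp1. The mean log2(CPM + 1) of the 16 bone matrix genes had an r with that of the 19 fibrous matrix genes of -0.69 on plate 1, -0.17 on plate 2 and -0.33 with plate means removed. On plate 2 it was -0.45 without the 4 cells left out in the added reading. The transcription factors of the lineage had an r of 0.40 and 0.57 with the bone matrix list and of -0.14 and 0.09 with the fibrous list. With the secretory list they had 0.39 and 0.47, with the collagen enzymes 0.33 and 0.53 and with the ribosomal proteins 0.32 and 0.41, and 0 of 24 pairs between the factors and bone matrix genes were called. Genes of the secretory pathway and collagen-modifying enzymes rose together (0.73 and 0.69) and both rose with the fibrous list (0.41 and 0.44 for secretory genes, 0.41 and 0.60 for the enzymes). The enzymes had an r with the bone list of -0.02 and 0.44. Other lists also ran against the bone list: contractile (-0.59 and -0.35), tendon and ligament (-0.55 and -0.27) and meninges genes (-0.52 and -0.33). The hypertrophic (0.46 and 0.60) and ribosomal protein lists (0.27 and 0.53) rose with it.

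Other lists gave the following values. Among 75 ribosomal protein genes 50 of 2775 pairs were called, or 1.80% beside 0.0645% of all pairs, with a median r of 0.21 and 0.25 beside 0.0872 and 0.127. Of 15 Wnt pathway genes, Wif1 (32 cells, 790.5 and 899 CPM), Sfrp2 and Dkk3 (48 cells, 534 and 445 CPM) passed the 30% filter, their median r was -0.16 and -0.18, and 0 of 3 pairs were called. The target gene Axin2 was read in 5 cells and at most at 33.8 CPM, and Sost, an inhibitor made by mature bone cells, in 0 of 87 cells. Of 15 cartilage genes 14 had a read, 82 cells held at least 1 of them, and the list summed to 1489.7 and 1716 CPM. Col11a1, a fibrillar collagen gene, made up much of it (72 cells, 639 and 976 CPM), whereas Sox9 was read in 20 cells and Col2a1 in 8. The hypertrophic gene Col10a1 was read in 0. Genes of mitosis were sparse too: Mki67 was read in 4 cells and Top2a in 1, and no member of the list reached the 30% filter. The immediate early pair Ctgf and Cyr61 was called at 0.52 and 0.55.

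The same pairs were read in the other tissues with plate means removed. Sagittal plate 2 stood apart, with a median of 875 genes per cell beside 2891.5 on sagittal plate 1, so sagittal values are given for plate 1 alone (30 cells) and for both plates (86 cells). A sagittal cell of plate 1 whose title and description name different tissues was counted by its title. The 1459 pairs had a median r of 0.37 over 74 coronal cells and 0.32 over 78 growth plate cells, beside 0.10 in each over all pairs. Over sagittal cells it was 0.18 on plate 1 and 0.13 on both plates, beside 0.043 and 0.024. The 66 opposite pairs had a median r of -0.33 in coronal cells, -0.20 in growth plate cells and -0.26 and -0.21 in sagittal cells. Ibsp and Spp1 had 0.59 in coronal, 0.64 in growth plate and 0.74 and 0.77 in sagittal cells. Itm2a and Spp1 had -0.68, -0.50, -0.57 and -0.39 in the same order. Mfap4 and Spp1 had -0.48, -0.63, 0.14 and 0.0035, so these genes did not oppose each other in sagittal cells. Col14a1 and Igf1 had 0.74, 0.71, 0.14 and 0.41, and Apoe and Igfbp2 had 0.41, 0.050, 0.39 and 0.17. With 1 sample per tissue the differences from PF cells were not tested.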

How the data were processed

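Single cells were sorted into 96-well plates, amplified with a full-length protocol without molecular identifiers and sequenced. Per the labels, the authors aligned reads with STAR (2.5.3a) to mm9 and counted them per gene with HTSeq. The deposited tables hold raw read counts for 24015 genes, with no mitochondrial gene and no blank name. Strand use in the counting was not given in the sources used here, so overlapping genes on opposite strands cannot be told apart. Cells were grouped by tissue from the labels, and cells with at least 500 genes and 10000 reads were kept. Rn45s was left out of totals, counts were scaled to CPM and taken as log2(CPM + 1).

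Leading genes were the 50 with most reads on each plate, variable genes the 100 with the largest residual SD, and called pairs those with Pearson's r of 0.5 or more, or -0.5 or less, on both plates. The genes named were the 20 leading genes, 20 variable genes, the 8 markers with their 3 closest partners, the 15 highest and 5 lowest pairs and the list members, with others named as chosen after their values were seen. The members and lists were chosen with earlier results of these data known. No test was run, since cells are not replicates and there was 1 sample per tissue. Limits on shares of cells cover counting error only, and a count of 0 was given the limit that 3 counts allow. Scripts were tested on simulated data. Alternatives were Rn45s in the totals, TMMwsp factors (edgeR 4.0.16), thinning to 50000 reads, stricter cell filters, another pseudocount, residuals on genes per cell, Spearman's rho, other detection filters, and leaving out cells, and those on Spp1 and on 4 cells were chosen after seeing the data. Exon lengths came from the mm9 annotation. Python 3.11.15, numpy 2.4.6 and pandas 2.3.3 were used.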

Additional observations from a re-analysis of the deposited data

How the results depend on the processing

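No paired analysis was possible because no test was made and no label ties cells of the 2 plates to each other. The 1459 pairs at r of 0.5 or more on both plates (0.0645% of pairs tested) became 922 as residuals on genes per cell (0.0408%). At a detection filter of 50%, 833 of 442270 pairs were called (0.188%), so the count was lower and the share higher. Of the 1459, 777 stayed called with thinning, 752 with at least 1500 genes and 50000 reads and 801 by Spearman's rho. The 66 opposite pairs (0.00292%) became 35 with thinning to 50000 reads (0.00164%) and 130 as residuals (0.00575%). They became 180 with the stricter cell filter (0.00565%, 44 of the 66 among them) and 171 without the 4 cells named above (0.00749%). At the 10% filter 155 were called (0.000896%) and at the 50% filter 2 (0.000452%). Spp1, read in 38.2% and 47.2% of the cells of the plates, cannot pass the 50% filter, so its pairs could not be called there. The 1000 highest pairs of plate 1 had a median r on plate 2 of 0.331, against 0.294 with thinning and 0.265 with the stricter cell filter. Those of plate 2 had 0.371 on plate 1, against 0.406 with Rn45s in the totals, 0.333 with thinning, 0.295 with the stricter filter, 0.43 as residuals, 0.442 by Spearman's rho and 0.339 without the 4 cells. The cause of these shifts was not tested. Leaving out each cell in turn gave 1275 to 1579 pairs together and 62 to 77 opposite pairs. The bone against fibrous value ranged from -0.69 to -0.17 over the plates. Of 67 called named pairs, 55 kept their call under every alternative run, and 34 of 670 readings lost it, with 0 reversed. Of 154 list medians under alternatives, 29 moved. Depth limits the sparse genes: on plate 1, with a median of 125830.5 reads, a gene at a few CPM is often without a read.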
